A study of Mus musculus with 6 samples.

Results

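Expression of 10 genes of the primitive endoderm was followed in mouse embryonic stem cells with and without Hoxd12: Gata4, Gata6, Sox7, Sox17, Foxa2, Pdgfra, Hnf4a, Dab2, Cubn and Amn. The genes were taken as a fixed list of symbols, and all 10 were found once each among the 55450 gene identifiers of the files. Gene expression was measured by sequencing of polyadenylated RNA in 3 libraries of Hoxd12-/- cells and 3 libraries of wild-type cells. Per the labels, the cells of each group were embryonic stem cells of the strain C57BL6 and of the E3.5 embryo. Each group was grown in mES medium with 2i, a pair of inhibitors of MEK and GSK3. The labels do not say how the Hoxd12 deletion was made, how many lines or clones were used, or whether replicates were grown as separate cultures, so p-values measure only how these libraries differ among themselves, and that spread may be technical.

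The primitive endoderm is the layer of the blastocyst that faces its cavity, next to the epiblast from which embryonic stem cells are derived. In the embryo, FGF4 acts through ERK to raise GATA6, which opposes the pluripotency factor NANOG, and PDGFRA, SOX17, GATA4 and SOX7 follow in the cells that become endoderm. HNF4A and FOXA2 act later in the visceral endoderm, whose cells take up nutrients through the receptor complex of cubilin (Cubn) and amnionless (Amn) with the adaptor DAB2. Forced expression of GATA4 or GATA6 turns embryonic stem cells into extraembryonic endoderm, while cultures in 2i keep such genes low.

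Library totals were 5412577 to 6280934 expected counts, which are estimated reads per gene. At these totals, 3 counts equal 0.478 to 0.554 CPM (counts per library total, scaled), the limit that a count of 0 allows, for counting error only. Sums over lists use the same totals. Means of single genes use totals adjusted by the TMM factors of the edgeR fit, so these scales differ slightly. In knockout replicate 2, 3 counts are 0.554 CPM on the first and 0.565 CPM on the second. The targeted gene, Hoxd12, had 0 counts in all 6 libraries, so it gave no check of the genotype labels. Stem cell markers were present in every library: Pou5f1 was at 1265 to 1441 TPM (a level scaled by transcript length) and Sox2 at 70.1 to 95.4 TPM.

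The endoderm genes had few counts in each genotype, from 0 for Sox7 to at most 42 for Gata4, and their summed counts overlapped between the genotypes. All 10 together collected 450 counts over the 6 libraries. Summed counts of the knockout libraries were 107, 59 and 75, and those of the wild-type libraries 75, 71 and 63. The sum was highest in knockout replicate 1, where Gata4 alone gave 42 counts, and the other knockout libraries lay at or below the level of wild type replicate 1. Without Gata4 the sums were 65, 45 and 49 counts in the knockout and 64, 63 and 45 in wild type, and the groups overlapped. In a bulk sample, a few cells with high expression and a low level in every cell cannot be told apart.

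**Figure D1:**
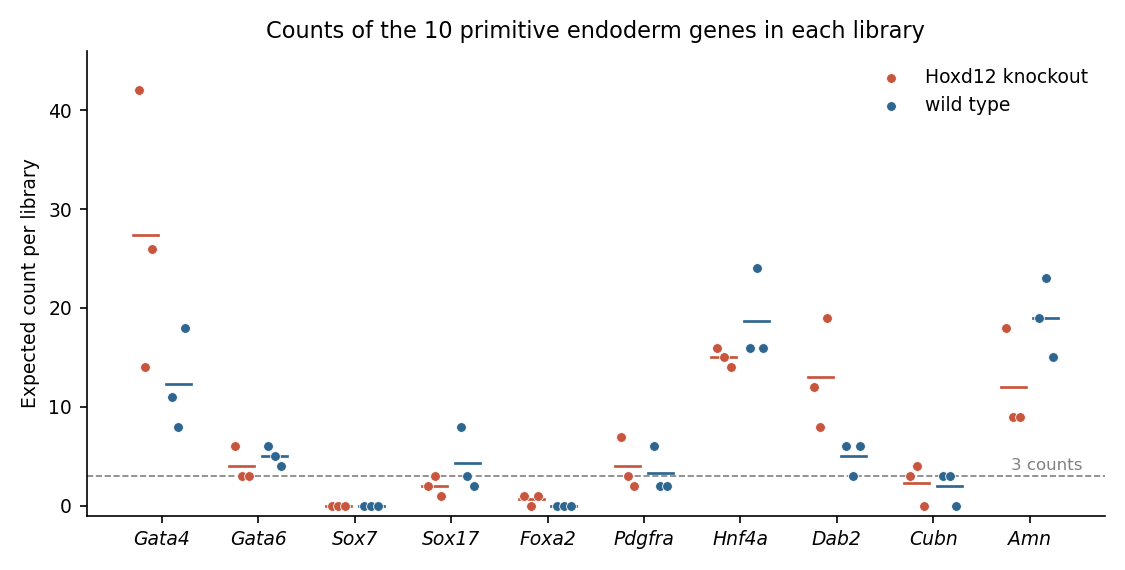
Expected counts of each of the 10 genes (vertical axis, counts per library) in the 3 knockout (red) and 3 wild-type (blue) libraries, with a bar at each group mean and a dashed line at 3 counts. Gata4 reaches 42 counts in 1 knockout library, Dab2 is the gene whose groups do not overlap, and Sox7 is at 0 throughout.

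Levels per transcript length were below those of each of the 14 stem cell markers. Mean TPM over the 6 libraries was highest for Amn (1.94 TPM) and Gata4 (1.33 TPM), followed by Hnf4a (0.612 TPM) and Dab2 (0.547 TPM). Sox17 (0.233 TPM), Gata6 (0.220 TPM), Pdgfra (0.142 TPM) and Cubn (0.0333 TPM) came below them, and Foxa2 lay between Pdgfra and Cubn. The order among Sox17, Gata6 and Pdgfra is within the spread of single libraries, which ran from 0.0800 to 0.540 TPM for Sox17 and from 0.150 to 0.300 TPM for Gata6. The lowest of the 14 stem cell markers, Prdm14, had a mean of 6.28 TPM, and Pou5f1 was 1005 times as high as Gata4 on this scale. Of 21951 protein-coding genes, 48.2% had a higher mean TPM than Gata4 and 61.0% a higher mean than Gata6.

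**Figure D2:**
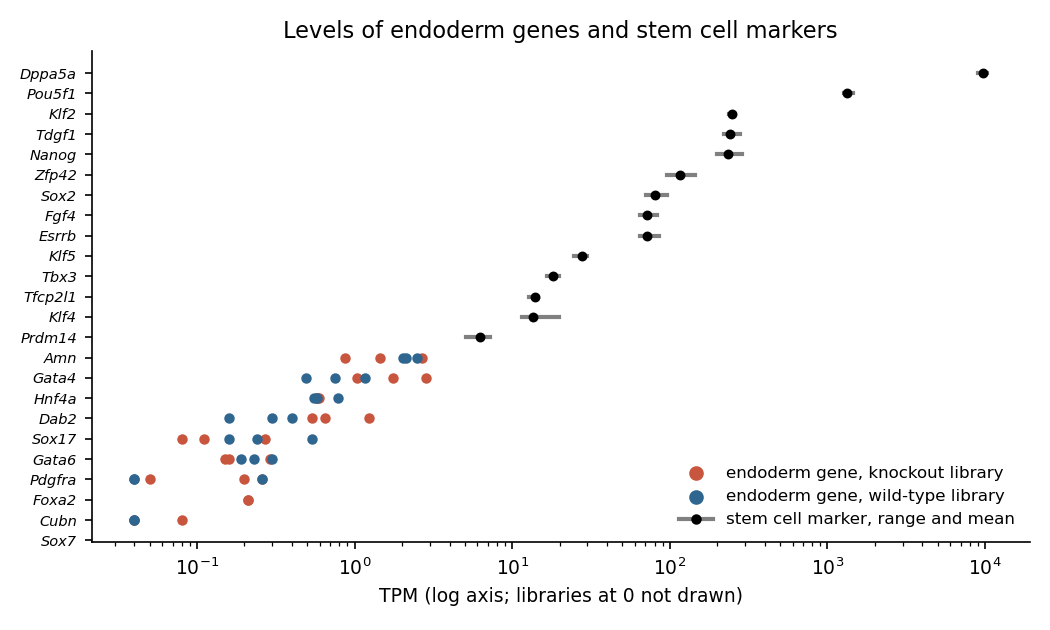
TPM (horizontal log axis) of the 10 endoderm genes in single libraries, red for knockout and blue for wild type, and of 14 stem cell markers as a mean with the range over 6 libraries. Amn, at a mean of 1.94 TPM, is below Prdm14, the lowest marker, at 6.28 TPM; libraries at 0, among them all 6 for Sox7, are not drawn.

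Of the 10 genes, 3 passed the filter on low counts: Gata4, Hnf4a and Amn. Among them 1 was called, Gata4, which was higher in the knockout. A call is an adjusted p below 0.05 in the quasi-likelihood test of edgeR, with adjustment over all genes tested. Over all 12891 tested genes, 26.5% were called, 12.1% higher and 14.4% lower, so 1 call of 3 is near the background. The median log2 fold change of the 3 genes was -0.33, against 0.02 for all tested genes. A further 6 genes had counts but failed the filter, and they were fitted with all 25221 genes that had a count, where 13.3% were called and 6.03% were called higher. None of these 6 was called in that fit, in which Dab2 alone had an unadjusted p below 0.05; DESeq2 and limma on TPM values without the filter called none of them either.

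Gata4 (ENSMUSG00000021944, chromosome 14, 63198922 to 63271692 on the minus strand, GRCm38) encodes a zinc finger factor that binds GATA sites and drives endoderm and heart development. Its counts were 42, 14 and 26 in the knockout and 11, 8 and 18 in wild type. The groups overlapped, since knockout replicate 2 lay below wild type replicate 3. Gata4 rose, with a mean of 4.44 ± 2.07 CPM in knockout cells against 2.10 ± 0.906 CPM in controls (SD, n = 3), a log2 fold change of 1.10 (SE 0.37, 95% interval 0.35 to 1.84, edgeR adjusted p = 0.0247).

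The Gata4 call rested on single libraries. Without knockout replicate 1 its log2 fold change was 0.68 (edgeR adjusted p = 0.277). Leaving out wild type replicate 1 (1.04, adjusted p = 0.0896) or 2 (0.84, adjusted p = 0.139) also ended the call, and it was kept when any of the other 3 libraries was left out (1.18 to 1.48). DESeq2 gave 1.09 (adjusted p = 0.0915), limma on log2(TPM + 1) 0.64 (adjusted p = 0.0991) and an offset for transcript length 1.11 (adjusted p = 0.0760). The direction was the same in all 14 alternatives, and 7 of them called the gene. DESeq2 called 15.4% of all tested genes and limma on log2(TPM + 1) 14.4%.

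**Figure D3:**
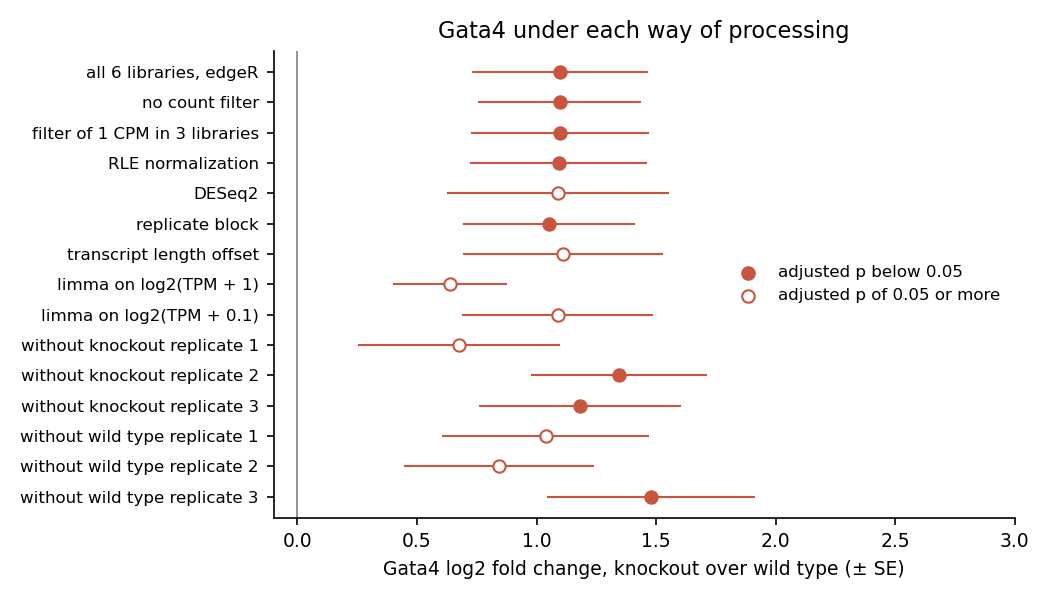
Log2 fold change of Gata4, knockout over wild type (horizontal axis, ± SE), for all 6 libraries and each of 14 alternatives; filled points have an adjusted p below 0.05. All points lie above 0, from 0.64 to 1.48, and 7 of the 14 alternatives are filled.

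Gata6 (ENSMUSG00000005836, chromosome 18, 11052064 to 11085635) encodes the factor that comes first in primitive endoderm. It had 6, 3 and 3 counts in the knockout and 6, 5 and 4 in wild type. No library was much above the limit of 3 counts, and the groups overlapped. In the fit without a count filter the log2 fold change was -0.34 (95% interval -1.82 to 1.13, edgeR adjusted p = 0.834). As a fold the interval ran from 0.284 to 2.19, so a difference of the size seen for Gata4 was not detectable at this depth.

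Among the listed relatives and cofactors of the GATA proteins, only Gata2 and Zfpm1 were tested, and neither was called (26.5% over all tested genes). Gata1, Gata3, Gata5 and Zfpm2 failed the filter on low counts. Gata2, a blood and trophoblast factor, was at 39 to 53 counts in the knockout and 53 to 71 in wild type (log2 fold change -0.33, edgeR adjusted p = 0.175; its sign was positive on TPM, 0.03). Zfpm1, which encodes the GATA cofactor FOG1, had 73 to 84 counts in the knockout and 86 to 95 in wild type and was not called (-0.22, adjusted p = 0.284). Gata5 had 1 count in 1 library. Zfpm1, Gata5 and the other genes given as counts only were chosen after their values were seen.

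The SoxF proteins SOX7 and SOX17 are HMG-box factors of endoderm and vessels. Sox7 (ENSMUSG00000063060, chromosome 14, 63943673 to 63950732) had 0 counts in all 6 libraries, so its level lay below 0.478 to 0.554 CPM in each. Sox17 (ENSMUSG00000025902, chromosome 1, 4490931 to 4497354) had 2, 3 and 1 counts in the knockout and 8, 3 and 2 in wild type. The 8 counts of wild type replicate 1 stood above the other libraries, and the groups overlapped. Its log2 fold change in the fit without a filter was -1.09 (95% interval -2.88 to 0.71, edgeR adjusted p = 0.548). It was -0.28 with wild type replicate 1 left out and -1.57 with knockout replicate 2 left out, and was not called in either. The third SoxF gene, Sox18, had 1 to 5 counts in every library.

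Foxa2 (ENSMUSG00000037025, chromosome 2, 148042877 to 148046969), a forkhead factor of definitive and visceral endoderm, had 1, 0 and 1 counts in the knockout and 0 in each wild-type library. Each group was under the limit, so no fold change is given. Hnf4a (ENSMUSG00000017950, chromosome 2, 163506808 to 163572910), a nuclear receptor that activates genes of visceral endoderm and liver, was among the steadier genes of the set. It had 16, 15 and 14 counts in the knockout and 16, 24 and 16 in wild type. Wild type replicate 2 was the highest, the other 5 libraries lay close together and the groups overlapped. The log2 fold change was -0.33 (95% interval -1.02 to 0.35, edgeR adjusted p = 0.506).

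Pdgfra (ENSMUSG00000029231, chromosome 5, 75152292 to 75198215) encodes the receptor for PDGF-A on early primitive endoderm, and it is also found on fibroblasts. It had 7, 3 and 2 counts in the knockout and 6, 2 and 2 in wild type. Replicate 1 was the highest in each group, and the log2 fold change without a filter was 0.22 (95% interval -1.40 to 1.85, edgeR adjusted p = 0.905); its sign was negative without knockout replicate 1 (-0.39) and without wild type replicate 2 (-0.04) or 3 (-0.03). The ligand gene Pdgfa was tested, with a knockout mean of 89.2 CPM and a wild-type mean of 97.1 CPM (log2 fold change -0.13, edgeR adjusted p = 0.118). Fibroblast markers summed to 21.4 to 27.0 CPM in knockout libraries, against 26.0 to 32.8 CPM in wild-type ones. Of the 16, 6 had 0 counts in all 6 libraries, among them Col3a1, Dcn, Lum and Postn. Others were present in every library, among them Col5a1 (34 to 57 counts), Pdgfrb (19 to 46) and Thy1 (14 to 36).

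Dab2 (ENSMUSG00000022150, chromosome 15, 6299788 to 6440712) encodes an endocytic adaptor that binds the tails of lipoprotein receptors and is a long-used marker of primitive endoderm. It had 12, 8 and 19 counts in the knockout and 6, 3 and 6 in wild type. Every knockout library was above every wild-type library, which held for Dab2 alone among the 10 genes; over all genes with a count, 11.6% had higher and separate knockout values, 12.8% lower and separate values, and 24.3% were separate in either direction. Mean levels were 2.11 ± 0.724 CPM for the knockout and 0.853 ± 0.317 CPM for wild type (SD, n = 3). In the fit without a filter the log2 fold change was 1.31 (SE 0.54, 95% interval 0.25 to 2.37, unadjusted p = 0.0154), and the gene failed the adjustment (edgeR adjusted p = 0.0962). With knockout replicate 2 left out Dab2 passed the filter and was called (1.49, edgeR adjusted p = 0.0386), while the fit of the same 5 libraries without a filter gave an adjusted p of 0.0586. Dab2 passed the filter there only through the remaining knockout libraries, at 12 and 19 counts, and not through wild type, at 6, 3 and 6. It also passed a filter in 4 other settings and was not called there: with a minimum of 1 CPM (adjusted p = 0.0538) and with wild type replicate 1 (0.0754), 2 (0.196) or 3 (0.0832) left out. Where a wild-type library was left out, Dab2 again passed only through knockout libraries, at 12 and 19 counts.

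Neither gene of the cubilin and amnionless complex was called. Amn (ENSMUSG00000021278, chromosome 12, 111271095 to 111276426), the membrane anchor of cubilin, had 18, 9 and 9 counts in the knockout and 19, 23 and 15 in wild type. Knockout replicate 1 lay within the wild-type range and the other knockout libraries below it. The log2 fold change was -0.68 (SE 0.36, 95% interval -1.43 to 0.06, edgeR adjusted p = 0.172), and it was -1.06 without knockout replicate 1 (adjusted p = 0.0841). Cubn (ENSMUSG00000026726, chromosome 2, 13276338 to 13491813), the receptor itself, had 3, 4 and 0 counts in the knockout and 3, 3 and 0 in wild type, with a log2 fold change of 0.22 (95% interval -1.90 to 2.34, edgeR adjusted p = 0.933) that was negative without knockout replicate 2 (-0.48) or wild type replicate 3 (-0.33). An annotated transcript on the opposite strand of Cubn, Gm13270, had 0 to 5.18 counts, and whether counting used strand is not given in the sources used here.

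**Figure D4:**
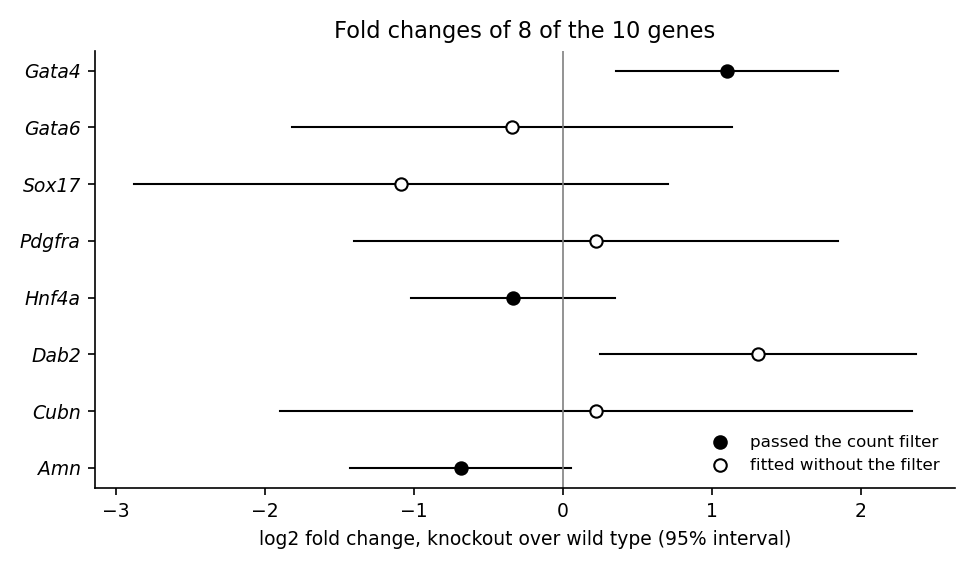
Log2 fold change with its 95% interval (horizontal axis, knockout over wild type) for 8 genes; filled points passed the count filter and open points come from the fit without it. The intervals of Gata4 (0.35 to 1.84) and Dab2 (0.25 to 2.37) lie above 0, before adjustment over genes, and the other 6 include 0; Foxa2 and Sox7 are not drawn because a group was at 0.

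Promoter sequences were examined for letters that GATA, SOX and FOXA factors bind. RefSeq (GRCm38.p6) gave 10 windows of 250 bases before a transcript start for 6 of the genes: Cubn, Foxa2, Hnf4a, Pdgfra, Amn and Dab2. The letters GATAA were found in 3 of the 10 windows, against 22.6% of 32851 mouse promoter windows. ACAAT, a core bound by SOX proteins, was found in 1 window (27.7% of all windows) and TGTTTAC, bound by FOXA proteins, in 0 (3.17% of all windows). Each motif was searched on both strands, and no matches overlapped. A match is only a description of the letters, and the absence of one says nothing about a factor. The windows of the 3 genes with a promoter entry that had at least 3 counts in every library are given 5′ to 3′ on the plus strand, with matches in capitals. For Dab2 and Hnf4a, which have more than 1 annotated start, the most upstream window is shown. They are Dab2 (chr15:6299539-6299788, GATAA beginning 178 bases before the start), Hnf4a (chr2:163506607-163506856, ACAAT at 134 and GATAA at 51 bases before the start) and Amn (chr12:111270846-111271095, no match).
Dab2: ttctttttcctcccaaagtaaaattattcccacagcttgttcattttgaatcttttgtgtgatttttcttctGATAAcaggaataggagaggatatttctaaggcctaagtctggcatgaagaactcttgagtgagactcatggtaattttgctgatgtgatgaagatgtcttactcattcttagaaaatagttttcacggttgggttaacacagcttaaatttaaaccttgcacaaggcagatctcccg
Hnf4a: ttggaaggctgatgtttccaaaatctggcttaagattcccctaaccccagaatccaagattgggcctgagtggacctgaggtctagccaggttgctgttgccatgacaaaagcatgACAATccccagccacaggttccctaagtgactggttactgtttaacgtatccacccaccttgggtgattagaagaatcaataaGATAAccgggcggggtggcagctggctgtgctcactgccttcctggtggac
Amn: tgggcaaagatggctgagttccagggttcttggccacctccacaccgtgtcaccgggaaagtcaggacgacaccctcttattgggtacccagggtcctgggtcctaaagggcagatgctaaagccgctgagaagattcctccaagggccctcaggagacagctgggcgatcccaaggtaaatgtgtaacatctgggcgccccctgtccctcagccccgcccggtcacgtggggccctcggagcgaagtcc

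The base composition of these windows differed. GC content was 36.8% in the Dab2 window, 51.2% in that of Hnf4a and 61.2% in that of Amn, where the median of all promoter windows was 52.4%. The downstream windows of Dab2 and Hnf4a, not shown, held no match and had a GC content of 60% and 57.6%.

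Neighbouring genes of Gata4 on chromosome 14 changed in either direction. Of 11 tested genes within 1 Mb, 2 rose and 4 fell (12.1% and 14.4% over all tested genes), with a median log2 fold change of 0.05. Neil2, a DNA glycosylase gene 5.07 kb from Gata4, rose from 12.7 ± 0.986 to 19.2 ± 2.24 CPM (SD, n = 3; log2 fold change 0.60, edgeR adjusted p = 0.00113). Fdft1, the squalene synthase gene 19.3 kb away, fell by 0.13 on the log2 scale (adjusted p = 0.0238), and Ctsb, a lysosomal protease gene, rose by 0.15 (adjusted p = 0.0168). On the other side of Gata4, the threonine dehydrogenase gene Tdh changed by -0.42 (adjusted p = 6.74e-09). Sox7, which lies 672 kb from Gata4, was at 0 counts. These neighbours were named after their values were seen.

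Genes that act with the 10 in endoderm changed in either direction. Of 22 other genes linked to primitive endoderm, 16 were tested, 4 rose and 2 fell (12.1% and 14.4% over all tested genes). The median was -0.01, against 0.02 for all tested genes. Serpinh1, a collagen chaperone gene, rose, with 816 to 1009 counts in the knockout and 572 to 700 in wild type (log2 fold change 0.52, edgeR adjusted p = 3.70e-09). Col4a1, a chain of basement membrane collagen, rose by 0.54 (adjusted p = 0.000574); the transcript length offset (0.47, adjusted p = 0.122) and log2(TPM + 1) values (0.46, adjusted p = 0.146) ended that call. Sparc, a secreted matrix protein gene, fell by 0.20 (adjusted p = 0.00113), a call lost on log2(TPM + 1) (-0.07, adjusted p = 0.459). Cited1, an X-linked coactivator gene, had a knockout mean of 4.81 ± 1.64 CPM (SD, n = 3) and fell by 1.22 on the log2 scale (edgeR adjusted p = 4.38e-05). The number that rose was 2 with DESeq2, 2 when knockout replicate 1, knockout replicate 3 or wild type replicate 3 was left out, and 1 with the length offset and on TPM. Thbd, Cp and Aqp8 had 0 counts in all libraries.

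Of 21 visceral endoderm genes, 10 were tested, 2 rose and 0 fell (12.1% and 14.4% over all tested genes), with a median of -0.01. Their summed level was 1007 to 1045 CPM in knockout libraries, against 763 to 777 CPM in wild-type ones, and most of each sum was Apoe. Apoe, an apolipoprotein gene that stem cells also express, rose from 731 ± 6.92 to 955 ± 34.0 CPM (SD, n = 3; log2 fold change 0.38, edgeR adjusted p = 3.78e-08). Otx2, a homeobox gene of anterior visceral endoderm and of the primed epiblast, rose from 4.79 ± 0.305 to 8.78 ± 1.34 CPM (0.87, adjusted p = 0.00220). Serum protein genes of the list ranged widely. Afp had 1 count in 1 library, Ttr 2 counts in each of 2 knockout libraries, and Apoa4 and Fgb none. The transferrin gene Trf had a mean of 8.87 TPM, the retinol carrier gene Rbp4 4.80 TPM and the apolipoprotein gene Apom 3.04 TPM, each above the highest mean of the 10 endoderm genes, and none of these was called. Cer1 and Lhx1, of the anterior visceral endoderm, also had 0 counts in all 6 libraries. Others of the list were present in every library. Hhex had 39 to 51 counts and a mean of 4.09 TPM (log2 fold change 0.02, edgeR adjusted p = 0.944). Eomes had a mean of 3.32 TPM (-0.04, adjusted p = 0.873).

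All 9 partners of endocytic receptors were tested, and 3 rose and 1 fell (12.1% and 14.4% over all tested genes), with a median of 0.06. Lrp2, which encodes megalin, the partner of cubilin, had 62 to 93 counts in the knockout and 53 to 69 in wild type (log2 fold change 0.42, edgeR adjusted p = 0.0452). Its call was lost in 10 of 14 alternatives, for instance when knockout replicate 1 (0.40, adjusted p = 0.126) or 3 (0.37, adjusted p = 0.161) was left out, when wild type replicate 1 (0.37, adjusted p = 0.133) or 3 (0.37, adjusted p = 0.141) was, and with the replicate number as a block (0.42, adjusted p = 0.0613). Gipc1, an adaptor of receptor traffic, rose by 0.41 (adjusted p = 1.73e-06), and Lrpap1, a chaperone of lipoprotein receptors, by 0.18 (adjusted p = 0.00950). Lrpap1 lost its call with DESeq2 (adjusted p = 0.0952), with the length offset (0.162) and when knockout replicate 3 (0.0575) or wild type replicate 1 (0.0506) was left out. Ap2m1, a clathrin adaptor subunit, fell by 0.13 (adjusted p = 0.0288), a direction that turned with the length offset (0.01) and on TPM (0.11). Its call was also lost with DESeq2 (adjusted p = 0.121), with no count filter (0.0812) and on leaving out any of 4 libraries: knockout replicate 1 (0.102), knockout replicate 2 (0.103), wild type replicate 1 (0.0878) and wild type replicate 3 (0.0918).

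Of 18 relatives of the 10 genes, 9 were tested and 0 were called (26.5% over all tested genes), with a median of -0.13. Among them 1 had an unadjusted p below 0.05, Pdgfa, and the count called was likewise 0 by DESeq2 and by limma on TPM. Hnf4g was at 0 in all libraries, and Foxa1 had 1 to 7 counts.

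The FGF and ERK pathway, which induces primitive endoderm, was expressed and changed in either direction. Of 25 genes, 22 were tested, 4 rose and 4 fell (12.1% and 14.4% over all tested genes), with a median of 0.08. The ligand gene Fgf4 was at 64.7 to 82.3 TPM and was not called (log2 fold change 0.07, edgeR adjusted p = 0.258), and the receptor gene Fgfr2 had 2.07 to 10.3 counts. Hras, which encodes a small GTPase, fell by 0.43 (adjusted p = 2.21e-06). The ERK targets did not share a direction. Etv4 fell by 0.87 (adjusted p = 5.07e-08) and Etv5 by 0.29 (adjusted p = 3.67e-05), while Spry2, a feedback inhibitor gene, rose by 0.51 (adjusted p = 0.00131) and Dusp6, an ERK phosphatase gene, was not called (0.62, adjusted p = 0.136); on log2(TPM + 1) the call of Etv5 was lost (-0.14, adjusted p = 0.197). The number that fell was 2 on TPM.

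Markers of other cell types were tested in 4 lists, beside a share of 26.5% called over all tested genes. Of 13 markers of definitive endoderm and mesendoderm, 4 were tested, and Gsc, a homeobox gene, fell (-1.35, edgeR adjusted p = 0.0234). Gsc passed the count filter only through its wild-type libraries, at 12 to 16 counts, against 3 to 8 in the knockout. Its call was lost without the count filter and with DESeq2 (adjusted p = 0.0978). The call also ended on leaving out knockout replicate 1 (0.0698), knockout replicate 2 (0.0926), wild type replicate 2 (0.0742) or wild type replicate 3 (0.104). Of 12 trophectoderm markers, 7 were tested. Tead4 rose (0.41, edgeR adjusted p = 0.0138) and Ascl2 fell (-0.60, edgeR adjusted p = 0.0117). Each call was lost in 6 of 14 alternatives. These were DESeq2 (adjusted p = 0.102 and 0.0761), the length offset, both pseudocounts on TPM, and leaving out knockout replicate 3 (0.0674 and 0.0970) or wild type replicate 2 (0.0688 and 0.0609). Of 16 fibroblast markers, 6 were tested and Thy1 fell (-0.97, edgeR adjusted p = 0.00859). The call of Thy1 was lost without knockout replicate 1 (0.0559) and on TPM with either pseudocount. Heart muscle markers, listed because Gata4 and Gata6 act there, summed to 24.2 to 27.8 CPM in knockout libraries, against 34.6 to 36.7 CPM in wild-type ones, and of 4 tested Myl7 fell (-0.89, adjusted p = 3.51e-05); their part in the result for Gata4 was not tested.

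Stem cell markers stayed high in each genotype, with sums of 9866 to 9916 CPM in knockout libraries, against 9387 to 9918 CPM in wild-type ones. All 14 were tested, 1 rose and 2 fell (12.1% and 14.4% over all tested genes), with a median of 0.05. Nanog, which opposes GATA6 in the embryo, fell from 559 ± 64.2 to 428 ± 19.2 CPM (SD, n = 3; log2 fold change -0.39, edgeR adjusted p = 0.00167). That call was lost without knockout replicate 2 (adjusted p = 0.0934) or 3 (0.0694) and on log2(TPM + 0.1). Klf5 fell by 0.31 (adjusted p = 7.17e-05; 0.164 on log2(TPM + 1)) and Zfp42, also called Rex1, rose by 0.29 (adjusted p = 1.43e-05). Without knockout replicate 2 the number that rose was 5, and without knockout replicate 3 the number that fell was 1.

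**Figure D5:**
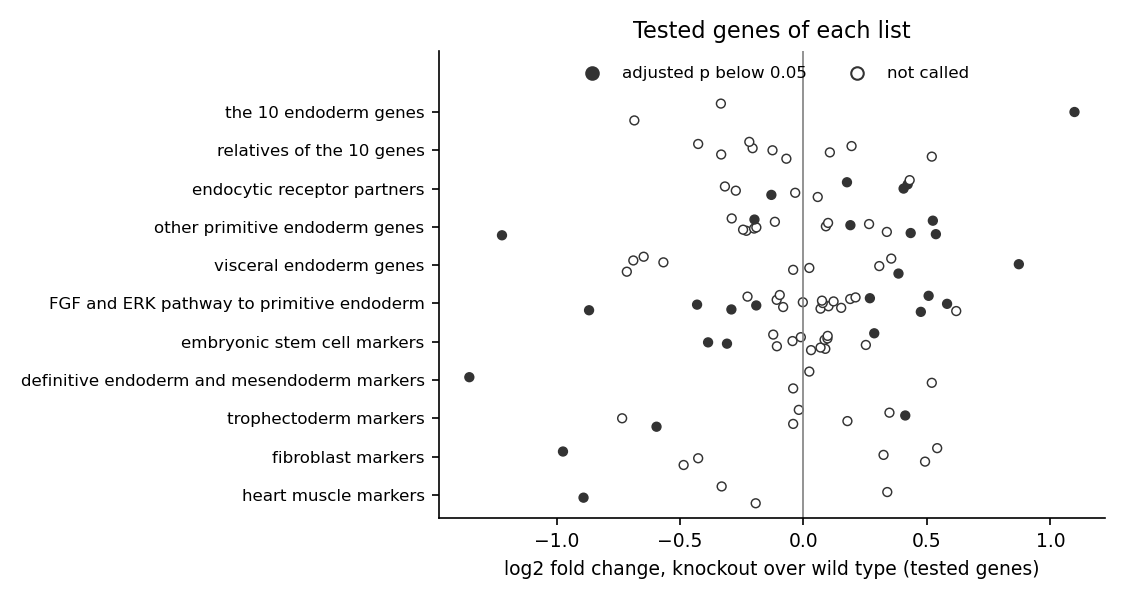
Log2 fold change, knockout over wild type (horizontal axis), of each tested gene in 11 lists; filled points have an adjusted p below 0.05. Gata4, at 1.10, is the point farthest to the right, and each of the larger lists holds points on either side of 0.

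The deposited length of a gene is a mean over its isoforms weighted by their estimated share. It was 2407 bases for Gata4 in all 6 libraries, the same value in each genotype. For Amn it was 1163 to 1701 bases in the knockout and 1176 to 1575 in wild type, and for Dab2 2487 to 2946 and 2452 to 3081. The ranges of the genotypes overlapped for each, and at these counts the isoform shares rest on few reads.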

How the data were processed

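RNA was extracted with Trizol and libraries were made with a stranded mRNA kit, per the labels' protocols. The authors deposited 1 table per library with expected counts, which are estimated reads per gene, beside TPM and FPKM values and a gene length, per the file headers; FPKM was not used. Bowtie 0.12.2 is listed in the submitters' processing notes, as are mm10 and mm8, with no role for either build. For the quantifier, the annotation and the strand setting, nothing is stated in the labels or headers. All 55450 identifiers matched GENCODE M21 (GRCm38), which gave symbols and coordinates.

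Expected counts were rounded and tested in R 4.3.3 with edgeR 4.0.16 (TMM, filterByExpr, robust quasi-likelihood fit, knockout against wild type without covariates). A call is a Benjamini-Hochberg adjusted p below 0.05 over all genes tested. Genes that failed the filter were taken from the same fit without it. Alternatives were no filter, a filter of 1 CPM in 3 libraries, RLE scaling, DESeq2 1.42.0, a replicate block, a transcript length offset, limma 3.58.1 on TPM values (log2, pseudocount 1 or 0.1), and leaving out each library. The edgeR script was tested on simulated data. The text names all 10 endoderm genes and, from each other list, up to 4 called genes with a mean of at least 1 CPM and the smallest p, or the 2 tested genes with the smallest p where none was called; other genes named were chosen after their values were seen. The genes and lists were chosen with earlier results of these data known. A gene that this rule would name is not reported here.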

Additional observations from a re-analysis of the deposited data

How the results depend on the processing

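Genes called numbered 3420 with all libraries, 1988 with DESeq2, 1856 on log2(TPM + 1) and 1824 on log2(TPM + 0.1), and 2615 to 3210 when 1 library was left out. Higher calls numbered 701 with DESeq2, and lower calls 749 and 738 on the 2 TPM scales, where the median of all genes was 0.10 and 0.11. Members called were 0 with DESeq2, the length offset and both TPM scales, and 0 to 2 when 1 library was left out. Signs turned for Pdgfra (-0.39, -0.04 and -0.03, in a range of -0.39 to 0.96 when 1 library was left out), Cubn (-0.48 and -0.33, in a range of -0.48 to 0.83), Gata2 (0.029 and 0.028 on the TPM scales) and Ap2m1 (0.0082, 0.11 and 0.11). With the replicate number as a block, 3353 genes and 1 member were called, Gata4 at 1.05 (edgeR adjusted p = 0.0307), and Lrp2 lost its call (0.0613). Deviations of same-numbered libraries correlated at 0.0036 to 0.0413, against -0.0608 to 0.0422 for libraries of different numbers. Of the 3 knockout libraries, 2 correlated best with their own number. The labels do not state that the numbers pair the libraries, so the main fit did not pair them. The cause of these changes was not tested. With 3 counts as the limit, depth leaves the intervals of Gata6, Sox17, Pdgfra and Cubn wide, and Foxa2 and Sox7 with no fold change.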
